A study of Mus musculus with 14 samples.

Results

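The interneuron markers and neuropeptides described here are 10 genes, taken by symbol from the gene table of a study of the mouse hippocampus: Gad1, Gad2, Slc32a1, Pvalb, Sst, Vip, Npy, Cck, Calb2 and Reln. They are 10 of the 22485 gene symbols in that table, all 10 were found in it, and all 10 passed the filter on low counts that left 13063 genes for testing. The study set tissue that had been dissociated with an enzyme against tissue that was homogenised directly, in the hippocampal fields CA1 and CA3 and in the dentate gyrus (DG) of the strain C57BL/6. Dissociated tissue sat at room temperature for 75 min in artificial cerebrospinal fluid to which the protease mixture pronase had been added at 1 mg/ml, and was then vortexed, spun and triturated in fluid with 1% FBS. Control tissue was homogenised without incubation, and RNA of both kinds was isolated with the same kit. Dissociated and control libraries numbered 3 and 3 in CA1, 2 and 2 in CA3, and 2 and 2 in DG. The labels give no age or sex. The authors' sample table gives the genotype WT and names 1 mouse for all 14 libraries, so every p-value reflects the spread among samples from that animal alone.

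Interneurons are the neurons of the hippocampus that release GABA, the main inhibitory transmitter of the adult forebrain. They make GABA from glutamate with glutamate decarboxylase, load it into vesicles with the transporter encoded by Slc32a1, and are sorted into types by calcium-binding proteins such as parvalbumin and calretinin and by peptides such as somatostatin, vasoactive intestinal peptide, neuropeptide Y and cholecystokinin. Peptides are cut from a longer precursor in the secretory pathway and stored in dense-core vesicles. The markers are not private to interneurons: pyramidal cells of the rodent hippocampus also carry Cck transcripts, mouse mossy cells of the dentate hilus carry calretinin, and Cajal-Retzius cells at the hippocampal fissure secrete reelin. In bulk tissue, fewer cells of a type and less RNA per cell cannot be told apart.

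The 4 peptide genes are shown by the stretch of coding sequence that specifies the best known active peptide, since these transcripts are what the Cck, Npy, Vip and Sst counts stand for. Each is read 5′ to 3′ on the coding strand of GENCODE M21 (GRCm38). Capitals in the first 3 mark the codons of the glycine and the pair of basic residues that follow the peptide, where the precursor is cut and the peptide receives its amide. Capitals in the last mark the pair of basic codons that precede the peptide.
Cck, cholecystokinin, 8 residues: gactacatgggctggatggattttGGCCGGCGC
Npy, neuropeptide Y, 36 residues: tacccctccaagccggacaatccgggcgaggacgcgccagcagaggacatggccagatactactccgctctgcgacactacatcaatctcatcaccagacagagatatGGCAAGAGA
Vip, vasoactive intestinal peptide, 28 residues: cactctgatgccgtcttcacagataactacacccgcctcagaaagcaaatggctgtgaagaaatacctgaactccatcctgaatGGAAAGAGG
Sst, somatostatin, 14 residues: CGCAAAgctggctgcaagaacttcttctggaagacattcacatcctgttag
The coding frames run to 115 codons in Cck, 97 in Npy, 171 in Vip and 116 in Sst, without the stop. In the deposited transcript tables each of these 4 genes has 1 transcript, so no count had to be divided between isoforms. Cck lies on chromosome 9 (121489824-121495694, minus strand), Npy on chromosome 6 (49822710-49829507, plus strand), Vip on chromosome 10 (5639218-5647617, plus strand) and Sst on chromosome 16 (23889573-23890958, minus strand).

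Depth limits what a low value means. Total counts ranged from 65887 to 4782767 in the 7 dissociated libraries and from 1285654 to 6646655 in the 7 control libraries. Levels are given in CPM, counts scaled to a common library size with TMM factors, and TPM is used where genes of different length are compared. A count of 0 allows up to 3 counts. This limit and the intervals printed with ratios speak of counting alone, since without molecular identifiers a read need not stand for a separate molecule. That limit is 20.5 and 9.87 CPM in CA1 dissociated replicates 2 and 3 and 46.7 CPM in DG dissociated replicate 3, the 3 libraries under 500000 counts. It is 4.95 CPM in DG dissociated replicate 4, and it lies between 0.443 and 2.78 CPM in the other 10 libraries.

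Before the members are described, the library labelled DG control replicate 2 has to be set apart. Prox1, a transcription factor of granule cells that some interneurons also carry, was at 109 and 264 CPM in the dissociated libraries of DG, against 105 and 350 CPM in the control ones, and at most at 60.3 CPM in any CA1 or CA3 library. Neurod6, a transcription factor of pyramidal neurons, had 0 counts and 8.24 CPM in the dissociated libraries of DG, and 177 CPM in control replicate 2 against 1.28 CPM in control replicate 3. In CA1 and CA3 it ran from 143 to 254 CPM. Drd2 and Csf2rb2, markers of mossy cells in mouse, were at 13.9 and 26.3 CPM in DG control replicate 2. Drd2 did not exceed 1.45 CPM elsewhere, and Csf2rb2 did not exceed 3.13 CPM except in DG dissociated replicate 3, where 31.1 CPM stood on 2 counts. The members' contrasts with DG, and their ratios within DG, are therefore given with and without this library. The part that tissue from neighbouring fields has in them was not tested.

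**Figure D1:**
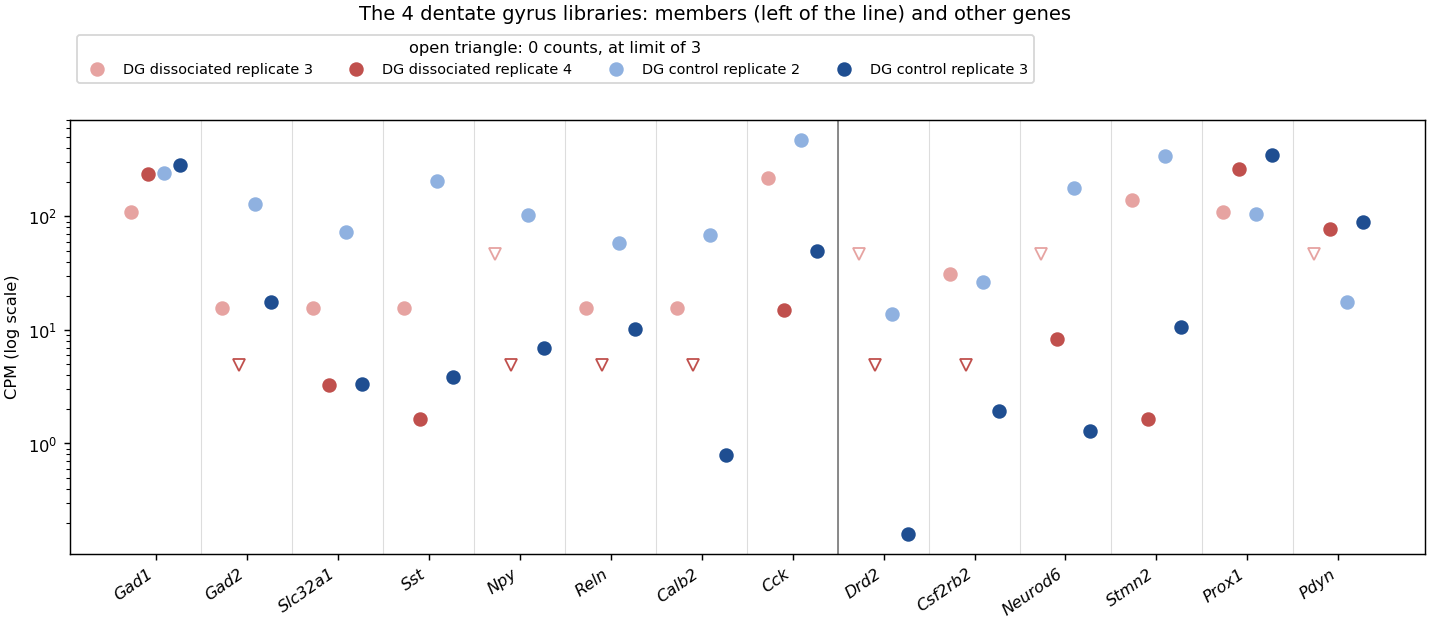
CPM on a log axis in the 4 DG libraries for 8 of the members (left of the grey line) and 6 other genes (right of it), with dissociated libraries left of control libraries for each gene and open triangles for 0 counts drawn at the limit of 3 counts. DG control replicate 2 is the highest of the 4 for Gad2, Slc32a1, Sst, Npy, Reln, Calb2, Cck, Drd2, Neurod6 and Stmn2, whereas the 4 libraries lie within 109 to 284 CPM for Gad1.

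Per unit of transcript length, Cck and Sst had the highest medians in CA1. There the median over 6 libraries was 1383 TPM for Cck, 384 TPM for Sst, 117 TPM for Gad1 and 117 TPM for Npy. It was 48.0 TPM for Pvalb, 41.6 for Slc32a1, 28.4 for Gad2, 12.6 for Vip, 2.55 for Calb2 and 2.06 for Reln. Cck, at 1179 to 1590 TPM, did not overlap with Sst, at 77.4 to 515 TPM, but below it neighbours in the order overlapped over the 6 libraries. In CA3 the order of the first 3 was the same, with medians of 1451 TPM for Cck, 626 TPM for Sst and 258 TPM for Gad1, and Cck and Sst overlapped there. In DG the median of Gad1, 215 TPM, came second to that of Cck, 412 TPM, and those of Sst, Npy, Slc32a1 and Gad2 were 36.4, 18.7, 5.45 and 5.18 TPM, with Gad1 and Cck overlapping over the 4 libraries.

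**Figure D2:**
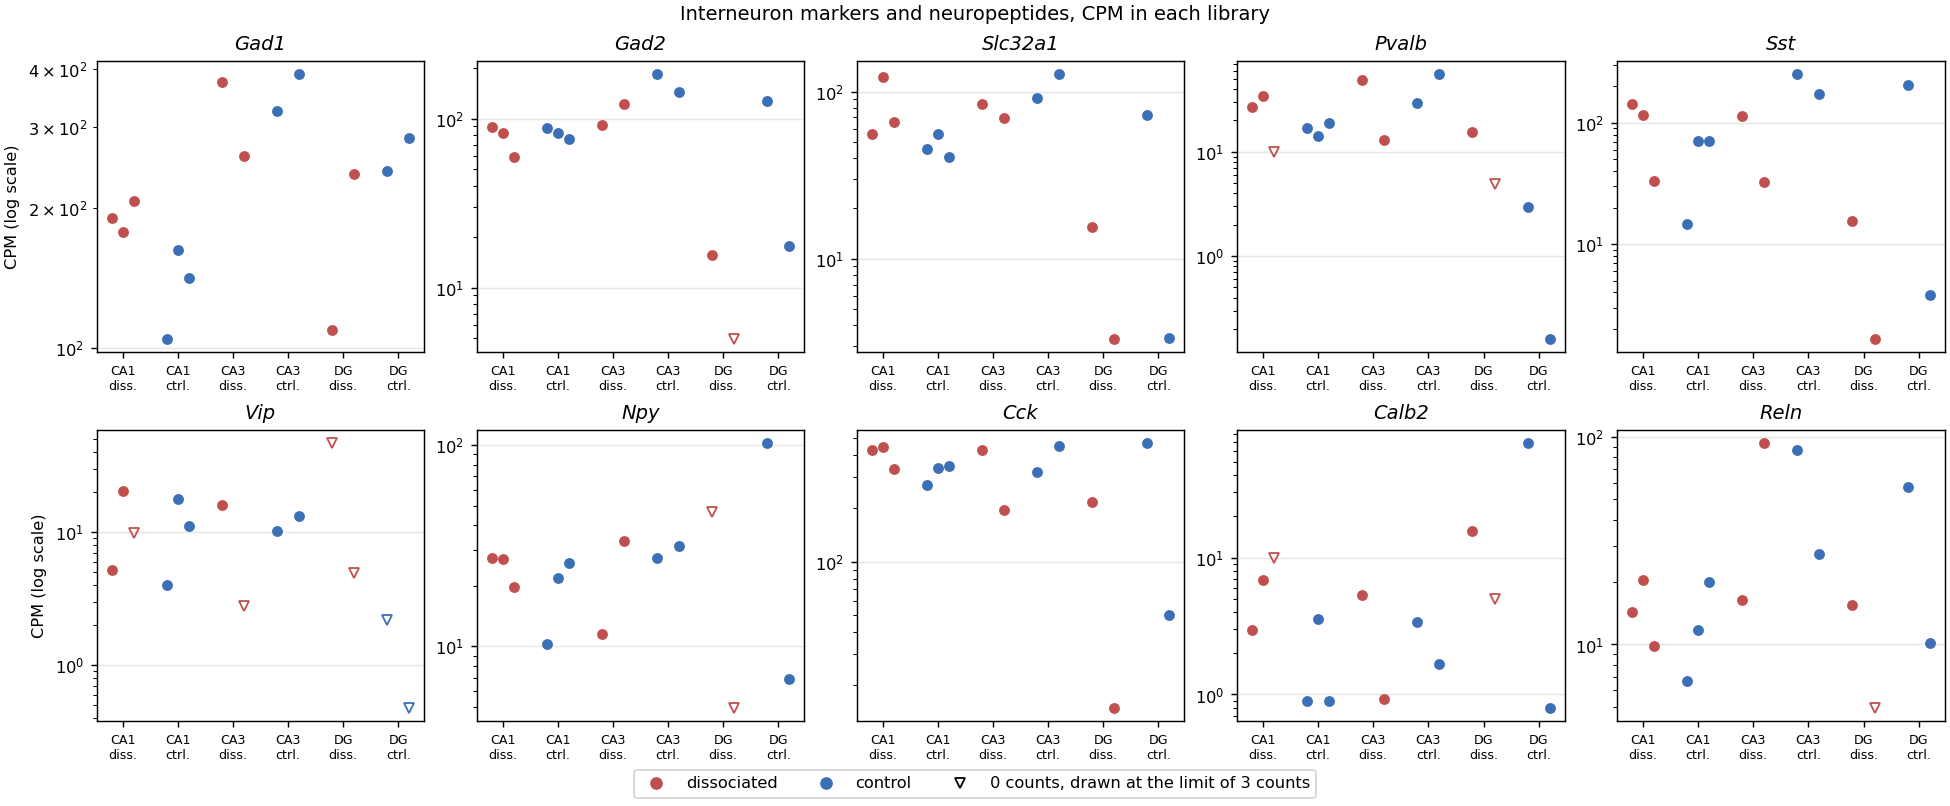
CPM on a log axis of the 10 members in each of the 14 libraries, with dissociated libraries (red) left of control libraries (blue) in CA1, CA3 and DG, and open triangles for libraries with 0 counts drawn at the limit that 3 counts give. Dissociated and control libraries overlap in CA1 for all members but Gad1, and in CA3 for all but Gad2, Slc32a1 and Sst. The share of all genes without such overlap was not counted, so these separations are description only. The DG control libraries lie far apart for every member but Gad1 and Vip.

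Gad1 encodes the glutamate decarboxylase found throughout the cell body and processes, and lies on chromosome 2 (70553072-70602014, plus strand). It had 191, 177 and 207 CPM in dissociated CA1 libraries, against 104, 162 and 141 CPM in control CA1 libraries. In CA3 it had 375 and 259.6 CPM after dissociation, against 324 and 389 CPM in control tissue, and in DG 109 and 237 CPM against 241 and 284 CPM. All 3 dissociated CA1 libraries were above all 3 control ones, whereas the groups overlapped in CA3 and the dissociated libraries were the lower pair in DG. The difference over regions was 0.04 ± 0.22 (log2 fold change ± SE, edgeR quasi-likelihood test, adjusted p = 0.968), and within CA1 it was 0.50 ± 0.31 (adjusted p = 0.585). The full-length transcript Gad1-001 held 95.6% of Gad1 counts in CA1, 94.2% in CA3 and 88.9% in DG.

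Gad2 encodes the decarboxylase enriched at nerve terminals (chromosome 2, 22622205-22693874, plus strand). It had 89.5, 81.8 and 59.2 CPM in dissociated CA1, against 88.3, 82.5 and 75.4 CPM in control CA1. In CA3 it had 91.5 and 121 CPM in dissociated libraries, against 183 and 144 CPM in control libraries, which did not overlap. In DG it had 15.6 CPM, from 1 count, and 0 counts in dissociated libraries, against 128 and 17.7 CPM in control libraries. Gad2 had the most negative estimate of the 10 for dissociation, −0.78 ± 0.45 (edgeR, unadjusted p = 0.0969, adjusted p = 0.498). An exact two-sided permutation test within regions, which can go no lower than 0.00278, gave p = 0.0222, and 0.222 after adjustment over the 10 members.

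Slc32a1, the vesicular transporter that loads GABA (chromosome 2, 158610767-158615748, plus strand), spread over the DG libraries much as Gad2 did. It had 55.6, 123 and 65.8 CPM in dissociated CA1, against 45.0, 55.9 and 40.6 CPM in control CA1. CA3 libraries had 83.7 and 69.5 CPM after dissociation, against 91.5 and 127 CPM in control tissue, and in DG 15.6 and 3.30 CPM, from 1 and 2 counts, against 72.4 and 3.35 CPM. Dissociated libraries overlapped with control libraries in CA1 and DG and lay below them in CA3. The estimate over regions was −0.23 ± 0.49 (edgeR, adjusted p = 0.890).

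The 3 genes of GABA synthesis and loading did not keep the same proportions in every library. In DG control replicate 3, a library of 6086605 counts, Gad1 stood at 1779 counts, Gad2 at 111 and Slc32a1 at 21. In DG dissociated replicate 4, of 598775 counts, the same genes had 144, 0 and 2 counts. The ratio of Gad1 TPM to Gad2 TPM was 33.0 in DG control replicate 3 and 7.43 in DG control replicate 2. It ran from 4.31 to 9.21 in the dissociated libraries of CA1 and CA3 and from 3.54 to 5.63 in the control ones, so that DG control replicate 3 lay outside the range of all others in which Gad2 had over 3 counts. No test was made of this ratio. The annotation places Gad1os on the strand opposite Gad1 and Gm14205 opposite Slc32a1. Within the span of Reln it places the antisense genes Gm10475 and Gm16110, with several pseudogenes and Gm19666. None of these is in the gene table. The strand setting was not given in the sources used here, so reads of these antisense genes could not be told apart from those of the members.

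**Figure D3:**
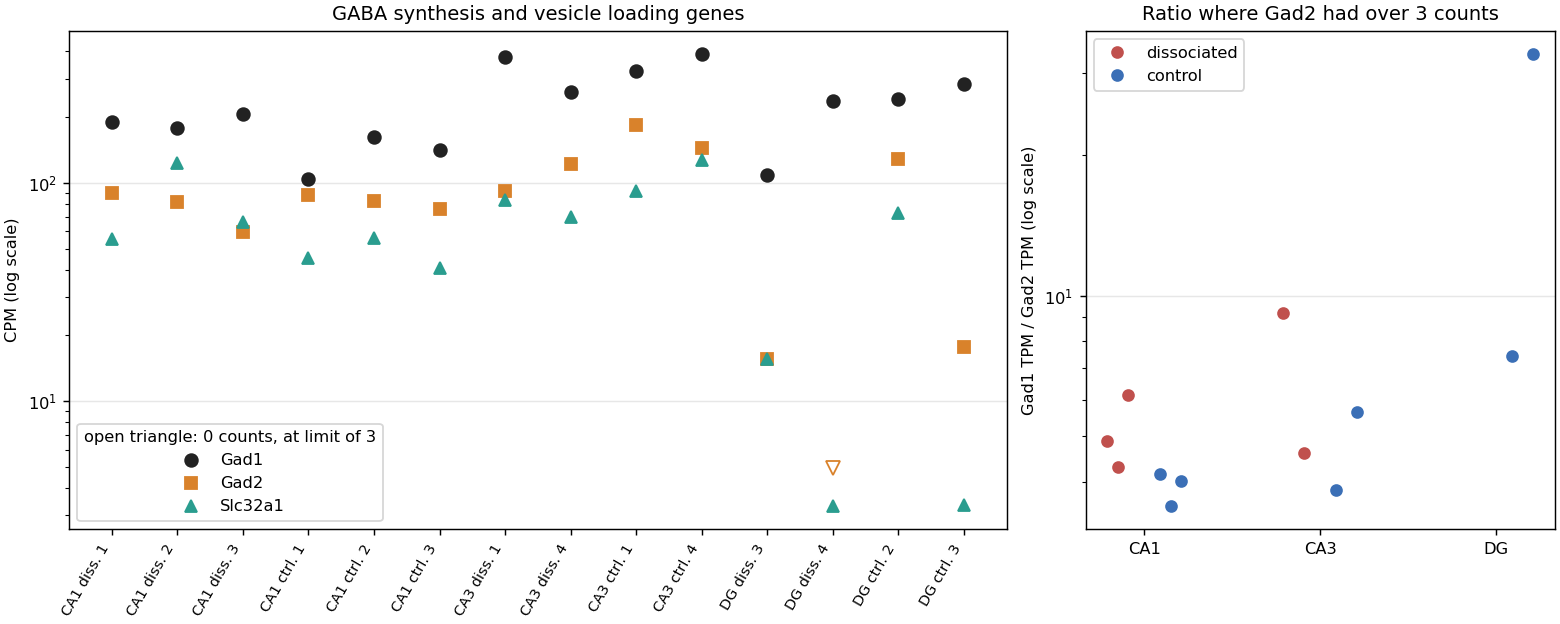
Left, CPM of Gad1, Gad2 and Slc32a1 on a log axis in each library, dissociated libraries before control libraries of the same region, with an open triangle for 0 counts at the limit of 3 counts. Right, the ratio of Gad1 TPM to Gad2 TPM on a log axis in libraries where Gad2 had over 3 counts, with the dissociated libraries left of the control ones. Gad1 stays above 100 CPM in all 14 libraries, and the ratio reaches 33.0 in DG control replicate 3.

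Of the calcium-binding proteins, Pvalb encodes parvalbumin, carried by fast-spiking basket and axo-axonic cells (chromosome 15, 78191114-78206400, minus strand). It had 26.6, 34.1 CPM and 0 counts in the dissociated CA1 libraries, against 16.9, 14.02 and 18.8 CPM in control CA1, and the library at 0 has a limit of 9.87 CPM. In CA3 it had 49.2 and 13.0 CPM after dissociation, against 29.0 and 55.3 CPM in control tissue. In DG it was seen with 6 counts over the 4 libraries, with 1 and 0 counts in dissociated libraries, against 4 and 1 in control libraries. The control library of DG with 6086605 counts held 1 of these, equal to 0.160 CPM. The estimate for dissociation was 0.03 ± 0.56 (edgeR, adjusted p = 0.992), so the error was far larger than the estimate. The split of its counts between its 2 transcripts changed from library to library and was not used.

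Calb2 encodes calretinin (chromosome 8, 110137502-110168210, minus strand). It was near the limit in most libraries: 2.96, 6.82 CPM and 0 counts in dissociated CA1, against 0.892, 3.54 and 0.893 CPM in control CA1, with 5.33 and 0.927 CPM in dissociated CA3, against 3.39 and 1.66 CPM in control CA3. In DG it had 1 and 0 counts in dissociated libraries, against 94 counts or 68.7 CPM in control replicate 2 and 5 counts or 0.798 CPM in control replicate 3. No library but DG control replicate 2 held more than 24 counts. The estimate for dissociation was −0.34 ± 0.97 (edgeR, adjusted p = 0.922).

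Among the peptides, Sst, the mark of dendrite-targeting cells in stratum oriens and of hilar cells, varied widely within groups. It had 143, 116 and 32.9 CPM in dissociated CA1, against 14.7, 71.1 and 70.5 CPM in control CA1. CA3 values were 114 and 32.4 CPM in dissociated libraries, against 251 and 172 CPM in control libraries, and in DG 15.6 and 1.65 CPM, from 1 count each, against 207 and 3.83 CPM. The dissociated libraries overlapped with the control ones in CA1 and DG and lay below them in CA3. Within CA1 the estimate was 0.94 ± 0.84 and within CA3 it was −1.50 ± 1.00 (edgeR, adjusted p = 0.740 and 1), and the interaction of treatment with region had an unadjusted p of 0.0224 and an adjusted p of 0.516.

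Npy, the precursor of neuropeptide Y found in neurogliaform, ivy and many hilar cells, had 27.3, 27.3 and 19.7 CPM in dissociated CA1, against 10.3, 21.8 and 25.9 CPM in control CA1. CA3 values were 11.5 and 33.4 CPM after dissociation, against 27.6 and 31.6 CPM in control tissue. In DG both dissociated libraries had 0 counts, against 102 and 6.87 CPM in control libraries, from 140 and 43 counts. The groups overlapped in CA1 and CA3. Taken over the pooled counts of the DG groups, Npy was at least 5.36-fold lower in dissociated than in control DG, a bound set by 3 counts over the dissociated pool, but the control level came mostly from control replicate 2. Against control replicate 3 alone, the bound was at least 1.53-fold lower. At the limits of the dissociated libraries, 46.7 and 4.95 CPM, the 6.87 CPM of control replicate 3 could be told apart from 0 only in replicate 4.

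Vip marks cells that contact other interneurons, and it had 0 counts in all 4 DG libraries. It had 5.24, 20.5 CPM and 0 counts in dissociated CA1, against 4.01, 17.9 and 11.2 CPM in control CA1, and 16.0 CPM and 0 counts in dissociated CA3, against 10.2 and 13.3 CPM in control CA3. Limits for the DG libraries at 0 were 46.7 and 4.95 CPM in dissociated libraries and 2.19 and 0.479 CPM in control libraries. The limits of the control libraries, but not those of the dissociated ones, lay under every level above 0 in CA1 and CA3. The estimate for dissociation was −0.63 ± 0.86 (edgeR, adjusted p = 0.813).

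Cck, the precursor of cholecystokinin, is carried by a class of basket cells as well as by pyramidal cells. It had 431, 443 and 336 CPM in dissociated CA1, against 271, 339 and 346 CPM in control CA1, and 431 and 197 CPM in dissociated CA3, against 321 and 451 CPM in control CA3. In DG it had 218 and 14.8 CPM in dissociated libraries, against 470 and 49.7 CPM in control libraries. The groups overlapped in all 3 regions, and the estimate for dissociation was −0.30 ± 0.44 (edgeR, adjusted p = 0.825).

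Reln encodes the secreted glycoprotein reelin (chromosome 5, 21884454-22344702, minus strand), made by Cajal-Retzius cells and by interneurons. It had 14.3, 20.5 and 9.87 CPM in dissociated CA1, against 6.69, 11.8 and 20.1 CPM in control CA1. In CA3 it had 16.4 and 93.6 CPM in dissociated libraries, against 86.6 and 27.4 CPM in control libraries. In DG it had 1 and 0 counts in dissociated libraries, against 57.8 and 10.2 CPM in control libraries. The groups overlapped in CA1 and CA3, and high values in CA3 stood in 1 library of each treatment, dissociated replicate 4 and control replicate 1. The estimate for dissociation was −0.45 ± 0.58 (edgeR, adjusted p = 0.795). Markers of Cajal-Retzius cells summed to 13.6 to 79.7 CPM in dissociated libraries, against 48.7 to 89.7 CPM in control libraries, and none of the 3 of 8 that could be tested was called.

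No member passed the test for dissociation over the 3 regions. Across all 13063 genes the same test called 0.773% (101 genes), with 0.727% (95) higher and 0.0459% (6) lower in dissociated tissue. Of the 10 members 2 had a positive estimate, and their median was −0.40, beside a positive estimate in 41.9% and a median of −0.11 over all genes tested. The adjusted p-values of the members ran from 0.498 to 0.992, and at an unadjusted p under 0.05 none of the 10 passed, beside 12.4% of all genes. DESeq2 called none of the 10 either, where it called 3.66% of genes, and none passed without the 3 libraries under 500000 counts, where 0.102% did. The standard errors, from 0.22 for Gad1 to 0.97 for Calb2, show how unequal the members are in what could have been detected.

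Within CA1 no member passed, where 0.191% of genes did, and 8 of the 10 estimates were positive, beside 46.3% of all genes, with a median of 0.35 against −0.06 over all genes. Within CA3 no member passed by edgeR's test, and 0% of all genes did, beside 523 genes at an unadjusted p under 0.05. There 1 of the 10 estimates was positive, beside 46.4% of all genes, with a median of −0.43 against −0.05 over all genes. Within DG no member passed, where 0.161% of genes did. Vip, at 0 counts in all 4 DG libraries, has no estimate there. Of the other members 1, Pvalb, had a positive estimate, beside 38.8% of all genes. It was 0.89 ± 2.43, from 1 count in dissociated against 5 in control DG. At an unadjusted p under 0.05 there were 5 of the 10 (Gad2, Slc32a1, Sst, Npy and Reln), beside 14.1% of all genes. These 5, and the 3 members under that p for the interaction below, depend on DG dissociated replicate 4. The limit of DG dissociated replicate 3, the other dissociated library of the region, was 46.7 CPM. Without DG control replicate 2, Gad2 and Npy were the 2 at an unadjusted p under 0.05, beside 9.62% of genes, and 4 estimates were positive. With pooled counts of 1 against 286, Gad2 was at 0.0398 times its control level in dissociated DG (95% exact Poisson interval of the smaller count 0.00101 to 0.222), but without DG control replicate 2 its adjusted p was 0.348, and without DG control replicate 3 it was 0.0170, so that the choice of control library decides this call. Sst, with 2 against 307 counts, was at 0.0741 times its control level (0.00898 to 0.268), Slc32a1, with 3 against 120, at 0.284 times (0.0587 to 0.831), and Reln, with 1 against 143, at 0.0796 times (0.00201 to 0.443). Against DG control replicate 3 alone, these ratios were 0.0841 (0.00213 to 0.469) for Gad2, 0.778 (0.0942 to 2.81) for Sst, 1.33 (0.275 to 3.90) for Slc32a1 and 0.146 (0.00369 to 0.813) for Reln. Without control replicate 2 the intervals of Sst and Slc32a1 thus reach from below the control level to above it. These intervals leave out the spread between libraries. The interaction of treatment with region called no member and 0% of genes by edgeR, beside 8.51% of genes (1112) and 3 of the 10 members (Gad2, Sst and Npy) at an unadjusted p under 0.05, while DESeq2 called 0.199% (26 genes) and no member. The smallest unadjusted p-values of the members were 0.00653 for Gad2 and 0.00927 for Npy.

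**Figure D4:**
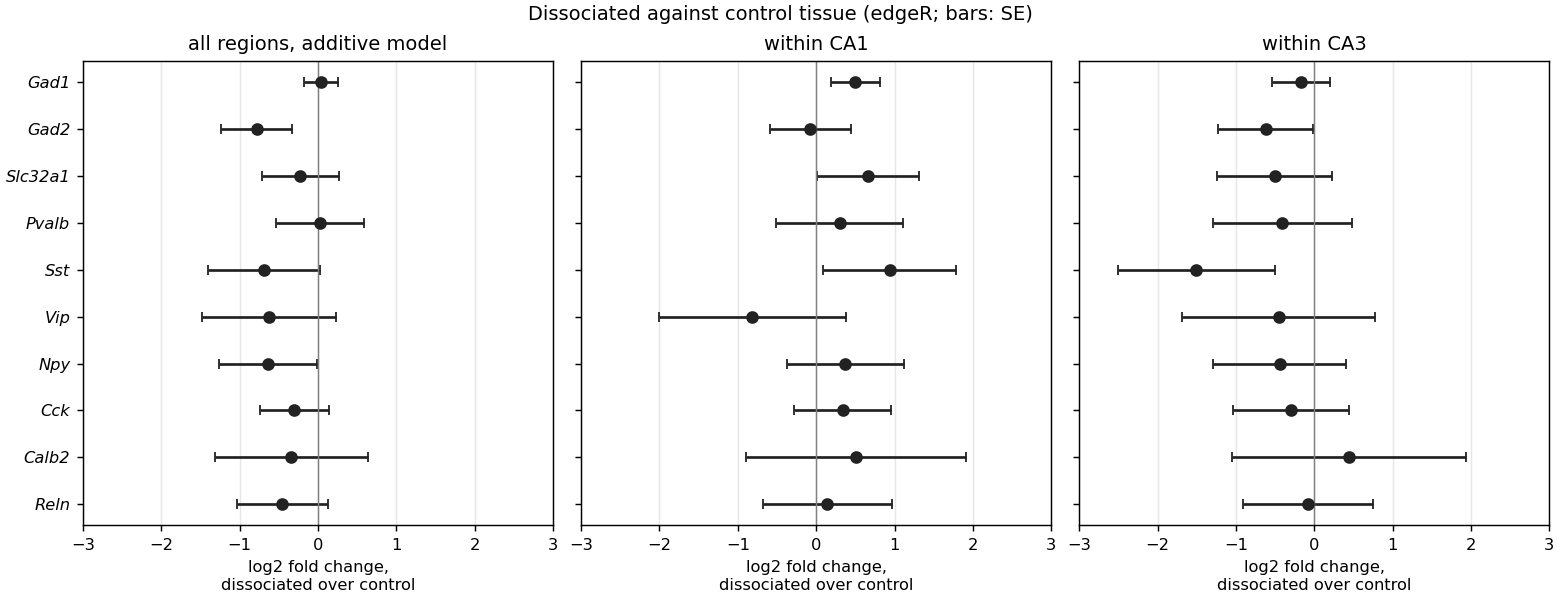
Log2 fold change of dissociated over control tissue for the 10 members, with SE bars, over all regions (left) and within CA1 (middle) and CA3 (right), by edgeR. No adjusted p is under 0.05. Estimates in CA1 are positive for 8 members and in CA3 for 1, Calb2.

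Markers of oligodendrocytes and microglia moved with treatment beside these neuronal genes. The summed level of the 11 oligodendrocyte markers was 1369 to 12395 CPM in dissociated libraries, against 601 to 3795 CPM in control libraries, and 8 of the 11 were called higher, Mbp by 1.62 ± 0.28. Without the 3 libraries under 500000 counts the adjusted p of Mbp was 0.201. The summed level of the 10 microglia markers was 603 to 2196 CPM in dissociated libraries, against 277 to 509 CPM in control libraries, and 7 of the 10 were called higher, Cx3cr1 by 1.84 ± 0.30. The 10 astrocyte markers, at 2024 to 7212 CPM in dissociated libraries and 2173 to 3582 CPM in control libraries, had none called and a median estimate of 0.63. The 10 general neuronal markers, at 3285 to 7634 CPM in dissociated libraries and 4400 to 8043 CPM in control libraries, had none called and a median estimate of −0.16. The part of these shifts in the members' estimates was not tested.

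Between regions, Pvalb and Vip were the members that passed, both higher in CA1 and in CA3 than in DG. Pvalb pooled to 18.4 CPM in CA1, against 0.723 CPM in DG, and the log2 fold change was 4.02 ± 0.99 (edgeR, adjusted p = 0.0213). In CA3 it pooled to 40.9 CPM, against the same DG level, with 5.05 ± 1.00 (adjusted p = 0.00857). Vip, with 181 counts in CA1 and 92 in CA3 against 0 in DG, was at least 31.1-fold higher in CA1 and at least 31.9-fold higher in CA3, bounds set by 3 counts over the pooled DG libraries (adjusted p = 0.0202 and 0.0317). Without DG control replicate 3, the most deeply sequenced DG library, the bounds were at least 7.64-fold and at least 7.83-fold higher. The 2 members called for CA1 against DG stand beside 4.06% of all genes, 1.98% being higher, and the 2 for CA3 against DG beside 1.78%, 0.888% being higher. The other 8 members did not pass, their estimates running from −3.22 ± 1.11 for Calb2 (adjusted p = 0.119) to 1.27 ± 0.64 for Slc32a1 (0.344) in CA1 against DG, and from −2.77 ± 1.21 for Calb2 (0.340) to 1.91 ± 0.65 for Slc32a1 (0.164) in CA3 against DG. The estimates of Calb2 rest on DG control replicate 2, which held 94 of its 100 DG counts, and were 0.78 and 1.05 without it.

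These region contrasts turned on which DG control library was in the fit. Without DG control replicate 2, 7 members were called higher in CA1 than in DG and 8 in CA3 than in DG, beside 5.52% and 4.26% of all genes. For CA1 these were Pvalb and Vip with Gad2 at 2.96, Slc32a1 at 4.05, Sst at 4.45, Npy at 2.41 and Cck at 2.75 log2 units (adjusted p by edgeR 0.00047, 5.09e-05, 0.00221, 0.0475 and 0.00157). For CA3 the same genes were joined by Reln, at 3.04 log2 units with an adjusted p of 0.0252. Npy changed sign, at −0.39 and −0.16 with all libraries and 2.41 and 2.61 without this one. Calb2 changed sign in both contrasts as well and Reln in CA1 against DG, at −0.65 with all libraries and 1.01 without this one (adjusted p = 0.521), and neither passed there. Without DG control replicate 3, no member was called in either contrast, beside 1.48% and 0.401% of all genes, and Pvalb kept estimates of 2.86 and 3.87 with adjusted p-values of 0.193 and 0.113. Gad1 stayed between −0.51 and −0.34 for CA1 against DG and between 0.55 and 0.71 for CA3 against DG in these 3 fits and passed in none of them.

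**Figure D5:**
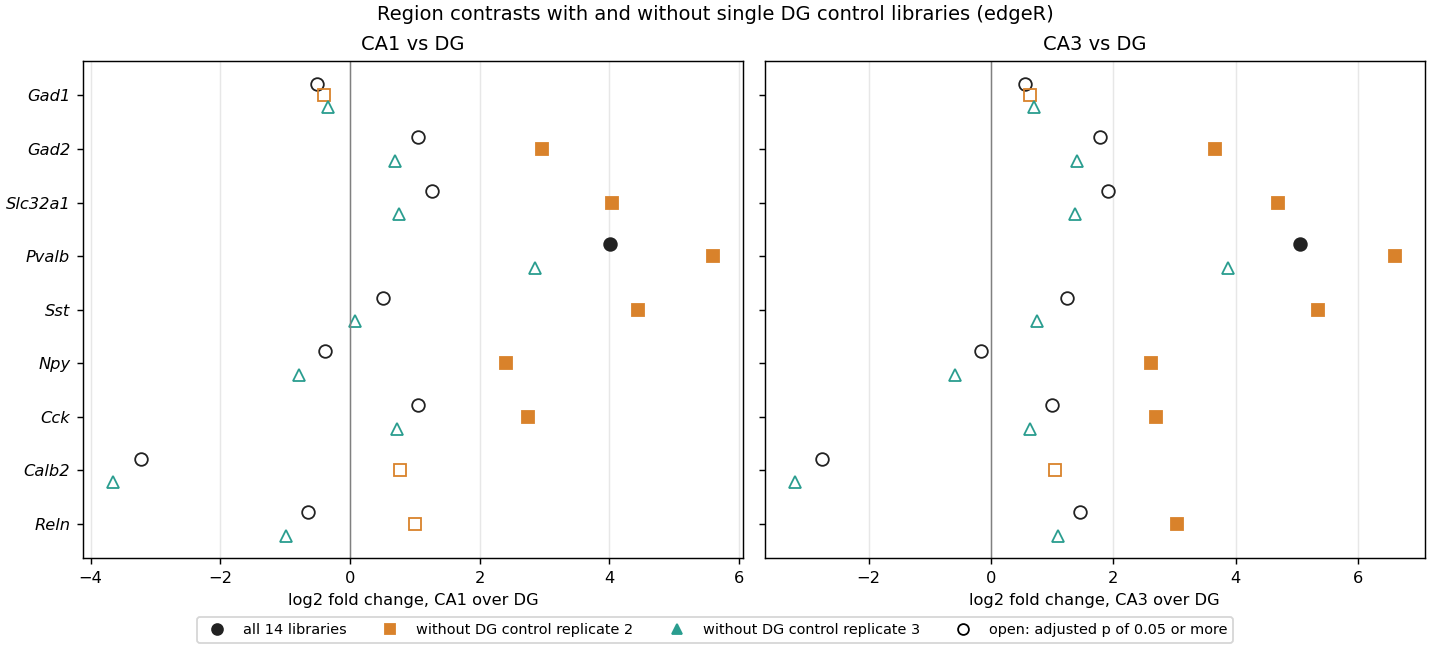
Log2 fold change of CA1 over DG (left) and CA3 over DG (right) for 9 members, with all 14 libraries (circles), without DG control replicate 2 (squares) and without DG control replicate 3 (triangles), by edgeR. Filled symbols have an adjusted p under 0.05. Vip, at 0 in all DG libraries, is left out. Gad1 moves little between the fits, and the other 8 estimates of each contrast lie further to the right without DG control replicate 2 than with all libraries.

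The call of Pvalb was lost only without DG control replicate 3 when each of the 14 libraries was left out in turn. The call of Vip in CA1 against DG was also lost without CA1 control replicate 2 (adjusted p = 0.0527), the library with 121 of its 273 counts, and without DG control replicate 3 (0.169). In CA3 against DG it was lost without CA1 control replicate 2 (0.0574) or 3 (0.0527), CA3 control replicate 1 (0.0560) or 4 (0.0630), DG control replicate 3 (0.253) or CA3 dissociated replicate 1 (0.0855). The fit with 1 mean per group, made on all 14 libraries, also compared the regions within each treatment. Between the control groups neither gene passed, where 1.68% of all genes did for CA1 against DG and 0.176% for CA3 against DG. Between the dissociated groups neither passed, where 2.06% and 1.25% did.

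Between CA1 and CA3 no member passed, where 0.115% of genes did. Gad1 had 104 to 207 CPM over the 6 CA1 libraries, against 259.6 to 389 CPM over the 4 CA3 libraries, and the groups did not overlap. The share of all genes without such overlap was not counted, so this separation is description only. The estimate of Gad1 was −1.06 ± 0.25 (edgeR, unadjusted p = 0.000368, adjusted p = 0.133). DESeq2 called it at an adjusted p of 0.00294, beside 0.429% of genes, and edgeR did without CA1 dissociated replicate 3 (0.0425) or without the 3 libraries under 500000 counts (0.0422, beside 0.516% of genes). Without the filter on low counts edgeR also called Gad1 (0.036, beside 0.73% of genes). Apart from CA1 dissociated replicate 3, no single library left out gave a call of Gad1. Nor did edgeR call it with other scaling (0.14), with the replicate block (0.433), between the control groups (0.338) or between the dissociated groups (0.899). Limma on TPM did not call it either. Reln, at 6.69 to 20.5 CPM over the CA1 libraries and 16.4 to 93.6 CPM over the CA3 libraries, had an estimate of −2.10 ± 0.63 and an adjusted p of 0.377. On this contrast 1 of the 10 estimates was positive, beside 43.8% of all genes.

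Other genes of inhibitory neurons and of peptide signalling were followed through lists. Of 13 tested genes of GABA synthesis, release and uptake, 1 was called for dissociation, Slc12a2, a chloride importer that glia also express, higher by 1.76 ± 0.33 (edgeR, adjusted p = 0.0126). Without the 3 libraries under 500000 counts its adjusted p was 0.117. None of the 13 was called between regions. For dissociation none passed of 15 interneuron transcription factors, 24 other subtype markers, 12 other peptide precursors, 20 genes of peptide processing and dense-core granules, and 16 receptors of the member peptides and of reelin. These are the members that passed the filter, of 18, 28, 27, 20 and 19 listed. Of the 18 transcription factors 17 were matched by symbol in the gene table. Their median estimates were 0.12, 0.21, −0.02, −0.10 and −0.20, beside −0.11 over all genes. The smallest p-values in these lists belonged to the processing gene Ptprn2 (−0.90 ± 0.26, adjusted p = 0.110) and the somatostatin receptor Sstr4 (−1.92 ± 0.58, adjusted p = 0.143).

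Between regions the subtype markers had 2 of 24 called higher in CA1 than in DG and 3 of 24 in CA3 than in DG. Crhbp, a binding protein of corticotropin-releasing hormone carried by Sst cells, had 1 count in the 4 DG libraries, against 492 in CA1 and 341 in CA3. Its pooled level was 254 times that of DG in CA1 (95% exact Poisson interval 45.5 to 10020) and 354 times in CA3 (63.6 to 13997). Erbb4, the neuregulin receptor of interneurons, was higher in CA3 than in DG by 3.05 ± 0.52 (edgeR, adjusted p = 0.00261). Kit, a receptor tyrosine kinase, was higher by 2.63 ± 0.55 in CA1 (0.00602) and 2.20 ± 0.57 in CA3 (0.0457), the last at an adjusted p of 0.233 without DG control replicate 3. Of the 15 transcription factors tested, 2 were called lower in CA1 than in DG and 1 in CA3 than in DG. Prox1 had log2 fold changes of −4.53 ± 0.50 in CA1 and −3.03 ± 0.52 in CA3 (edgeR, adjusted p = 1.02e-05 and 0.00292), and Adarb2, an RNA-binding protein of an editing enzyme family that this list also holds, had −2.30 ± 0.43 in CA1 (0.00214). Of the 12 other peptide precursors, 1 was called lower in each contrast, Pdyn, the dynorphin precursor of granule cells, at −5.52 ± 0.81 in CA1 and −5.74 ± 0.92 in CA3 (0.000311 and 0.00174).

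Of the 20 processing and granule genes, 4 were called for CA1 against DG. Cadps2, which primes dense-core vesicles, was higher by 2.33 ± 0.40 and Ptprn2, a granule membrane protein, by 1.81 ± 0.33 (edgeR, adjusted p = 0.00119 and 0.00186). Scg5, a chaperone of a prohormone convertase, was higher by 1.28 ± 0.36 (0.0454) and the convertase gene Pcsk5 was lower, at −4.59 ± 1.20 (0.0295), at adjusted p-values of 0.252 and 0.155 without DG control replicate 3. Pcsk5 was the 1 of the 20 called for CA3 against DG, again lower, at −5.49 ± 1.37 (0.0392, and 0.243 without that library). Among the 16 receptors, Sstr4 was higher in CA1 than in DG by 3.40 ± 0.87 (0.0263) and Adcyap1r1, a receptor of the peptide family of Vip, lower, at −1.65 ± 0.40 (0.0176), at 0.213 and 0.102 without DG control replicate 3. Without DG control replicate 2, each of the genes called from these lists against DG passed again in the same direction. For CA1 against DG the estimates in that fit were 3.75 for Kit, −4.65 for Prox1, −2.22 for Adarb2, −6.04 for Pdyn, 2.23 for Cadps2, 2.69 for Ptprn2, 1.69 for Scg5, −4.64 for Pcsk5, 4.46 for Sstr4 and −1.655 for Adcyap1r1. For CA3 against DG they were 4.06 for Erbb4, 3.28 for Kit, −3.13 for Prox1, −6.30 for Pdyn and −5.59 for Pcsk5, and Crhbp had adjusted p-values of 0.00154 in CA1 and 0.00121 in CA3. None of these 5 lists had a gene called between CA1 and CA3.

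The genes whose log2 CPM followed a member most closely over the 14 libraries, among 11501 with a mean of at least 5 CPM, are given as a description, since the libraries share regions and depths. For Gad2 they were Ephb6 and Hapln4 (Pearson r 0.974 and 0.952), for Slc32a1 Cpne7 and Tubb3 (0.945 and 0.936), and for Gad1 Tmem145 and Phyhipl (0.833 and 0.795). For Cck they were Plch2 and Khdrbs3 (0.951 and 0.937), for Npy Neto2 and Lats2 (0.946 and 0.938), and for Sst Scrn1 and Mast1 (0.870 and 0.868). For Vip they were Akr1c18 and Cds1 (0.935 and 0.924), for Pvalb Sept9 and Scg5 (0.918 and 0.916), for Reln Plekhh1 and Ubr7 (0.855 and 0.851) and for Calb2 Hmces and Entpd2 (0.806 and 0.769). No gene was named for more than 1 member, and none of the 20 is itself a member.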

How the data were processed

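The deposited gene table holds estimated counts, which the authors made by summing transcript estimates by symbol and rounding them (each value lay within 0.5 of that sum). TPM and estimated counts per transcript were deposited in kallisto tables, per the file headers, and TPM was summed by symbol here. The submitters' processing notes name kallisto, cutadapt, FastQC and DESeq2; genome build, annotation release and strand were not given in the sources used here. Coordinates and coding sequence were read from GENCODE M21 (GRCm38) by identifier. Because deposited transcript versions can differ from M21 in their ends, the reading frame of the deposited coding length was used.

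edgeR 4.0.16 (R 4.3.3) tested the counts with filterByExpr (minimum count 10, total 15), TMM scaling and the quasi-likelihood F test, with region and treatment as additive terms (10 residual degrees of freedom), or with 1 mean per group (8) for treatment within regions and its interaction. Genes at a Benjamini-Hochberg adjusted p under 0.05 over 13063 genes were called. The fit was checked on simulated data. DESeq2 1.42.0, limma 3.58.1 on log2(TPM + 1), other scaling, no filter, a replicate block and leaving out each library served as alternatives. So did the region contrasts within 1 treatment, taken from the fit with 1 mean per group on all 14 libraries. Leaving out the 3 libraries under 500000 counts was added after seeing the data.

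The members and lists were chosen with earlier results of these data known. All members are named; from each other list, called genes with the smallest p (at most 4), otherwise the 2 smallest, could be named. Genes named as like a member are the 2 with the highest Pearson r of log2 CPM (prior count 2).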

Additional observations from a re-analysis of the deposited data

Results flagged for a closer look

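Members were searched by Dixon's criterion for libraries far from the others of their group in 50 groups of 4 to 7 libraries. Its chance rate of about 1 in 20 is for independent groups of like samples. The groups here share libraries and mix treatments or regions, so that rate does not apply as it stands. By this criterion 7 values stood apart. DG control replicate 2 accounts for 5 of them: Gad2 at 127.93 CPM, where the next DG library had 17.7 CPM; Sst at 206.88 CPM, next 15.6 CPM; Npy at 102.34 CPM, both among the DG libraries (next 6.87 CPM) and among the control libraries (next 31.6 CPM); and Calb2 at 68.716 CPM among the control libraries (next 3.54 CPM). Slc32a1 stood at 122.76 CPM in CA1 dissociated replicate 2, from 18 counts, where the next CA1 library had 65.8 CPM. Reln stood at 93.629 CPM in CA3 dissociated replicate 4, where the next dissociated library had 20.5 CPM.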

How the results depend on the processing

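No member was called for dissociation over all regions, within CA1 or within CA3 under any alternative. For CA1 against DG, 2 members were called with all libraries, 5 without the filter on low counts (beside 5.18% of all genes) and 3 by DESeq2 (7.64%). Those by DESeq2 were Pvalb, Vip and, lower, Calb2. By limma on TPM 0 were called, between the control groups 0, and between the dissociated groups 1 (Gad2, which rests on 1 DG count). With 1 library left out, 0 to 7 were called. Without DG dissociated replicate 4 Calb2 was called lower along with Pvalb and Vip, beside 3.08% of all genes. For CA3 against DG these counts were 2, 6 (3.54%), 2 (3.77%), 0, 0, 1 and 0 to 8. For CA1 against CA3, 0 were called with all libraries, 2 without the filter (0.73%), 1 by DESeq2, 1 without the 3 libraries under 500000 counts, and 0 to 1 with 1 library left out. For treatment within DG, 0 were called with all libraries, 4 without the filter (Gad2, Sst, Npy and Cck, lower, beside 1.5%) and 1 by DESeq2 (Gad2, beside 0.796%). Without DG control replicate 3, which left 1 control library in DG, the estimates were −6.29 for Gad2 and −10.67 for Npy. That of Npy rests on 0 counts in the dissociated DG libraries. For the interaction, 0 were called and, without the filter, 3 (0.736%). Npy reversed without DG control replicate 2, at 2.414 for CA1 against DG and 2.612 for CA3 against DG; with 1 library left out its estimates ran from −0.973 to 2.414 and from −0.758 to 2.612. The cause of these shifts was not tested, except that fewer samples enter some fits. Over all genes, calls for dissociation ran from 37 to 203 higher with 1 library left out, against 95, and from 7 to 411 under the other alternatives.

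With the replicate block, members called numbered 0 for dissociation, 2 for CA1 against DG and 3 for CA3 against DG, where Slc32a1 was added (beside 2.91%, 2.15% and 0.942% of genes). In DG the groups share 1 number, so no such fit was made there. Deviations of libraries with the same number correlated at −0.028, 0.014 and 0.019 in CA1 and 0.067 in CA3. Not every CA1 library correlated best with its own number. With 2 libraries per group, the deviations in CA3 mirror each other. In CA1, dissociated replicates 2 and 3 had only 135065 and 300812 counts. The check therefore cannot decide whether the numbers pair the samples. Another scaling moved the median estimate for dissociation over all genes from −0.11 (TMM) to −0.01 (relative log expression). In DG, dissociated libraries of 65887 and 598775 counts cannot show levels under 46.7 and 4.95 CPM.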
